A study of Homo sapiens with 6 samples.

Results

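The entries described here are the 378 whole-gene entries of a segment of human chromosome 12 in RKO cells with and without overexpression of the gap junction protein Cx43. The segment starts at 380000 (hg19) and covers the short arm and the first part of the long arm, and the locus that starts at 65672423 is the last one in it. A whole-gene entry is a row of the deposited isoform-level table whose isoform identifier is the gene identifier itself, so that its span runs from the first to the last base of the gene with the introns included. Of the 52414 whole-gene entries among the 251748 rows of that table, 1321 have a locus that starts in the segment. The 378 members are those with a mean of at least 0.05 FPKM over the 6 libraries, and 506 of the 1321 were listed at 0 in every library. The segment was selected on lowered OVER43 minus EV differences of these same libraries, and the members were then chosen by position and mean FPKM, so their differences are descriptions: the calls given for single members come from a fit over the whole table and support nothing about the segment.

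RKO is a human colorectal carcinoma cell line. Poly(A) RNA was sequenced from 3 EV libraries, of cells stably transfected with the empty expression vector pcDNA3.1, and from 3 OVER43 libraries, of cells stably transfected with the same vector carrying the cDNA of Cx43. Both groups went through vector transfection and selection, and whether each is 1 clone or a pool is not given in the sources used here. The comparison of the study, OVER43 against EV, asks how transcripts differ in cells that overexpress Cx43.

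GJA1, which encodes Cx43, checked the labels in the gene-level table, at 24.7 ± 1.44 FPKM in the OVER43 libraries against 0.348 ± 0.0469 in the EV libraries (SD, n = 3). FPKM counts fragments per kilobase of transcript per M (mega) fragments, and its low values placed the libraries at 46.3 to 49.0 M fragments in OVER43 and 42.2 to 51.8 M in EV. The summed FPKM of a library over all isoform entries ran from 554456 to 566947 (OVER43) and from 500546 to 509175 (EV), and over whole-gene entries alone from 18920 to 19882 and from 18247 to 18336. Of 6 colon epithelial markers, 4 reached 1 FPKM in the gene table, while CDH1 and VIL1 did not. In OVER43 against EV, EPCAM stood at 20.5 and 12.5 FPKM and KRT18 at 148 and 79.4 FPKM, and in the other direction KRT8 stood at 24.6 and 58.7 FPKM and CDX2 at 6.21 and 7.78 FPKM. Of the markers of other cell types, 0 of 5 for fibroblasts and 0 of 3 for endothelium reached 1 FPKM, and of 4 for leukocytes CD68 alone did, with PTPRC and CD3E listed at 0. In bulk RNA, fewer cells with a transcript and less transcript per cell cannot be told apart.

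As background, most human genes are transcribed as long precursors whose introns are removed before the RNA leaves the nucleus. A poly(A) library holds mainly spliced mRNA, with a small share of fragments from precursors and retained introns, and an assignment of fragments to a whole-gene entry collects that share. Fragments of genomic DNA and fragments from exons of a spliced isoform can be assigned to the same entry, and their part was not tested. The short arm and the first part of the long arm of chromosome 12 carry the keratin and HOXC clusters, tubulin genes, and genes for chromatin enzymes, glycolysis and cell cycle kinases.

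The sequences of 4 gene starts are printed because their entries show large differences in both directions. LMNTD1 and MSRB3 read higher in OVER43, and the neighbours RDH5 and METTL7B read lower. Each is the run of 250 bases before the RefSeq transcription start, 5′ to 3′ in the direction of transcription, from RefSeq on GRCh38.p14. Capitals mark matches to the AP-1 motif TGANTCA.

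LMNTD1, minus strand, chr12:25648579-25648828: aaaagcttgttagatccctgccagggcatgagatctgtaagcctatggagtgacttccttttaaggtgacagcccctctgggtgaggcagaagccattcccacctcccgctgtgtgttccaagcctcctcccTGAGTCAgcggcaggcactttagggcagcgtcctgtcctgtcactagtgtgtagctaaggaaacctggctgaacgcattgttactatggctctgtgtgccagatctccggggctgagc

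MSRB3, plus strand, chr12:65278433-65278682: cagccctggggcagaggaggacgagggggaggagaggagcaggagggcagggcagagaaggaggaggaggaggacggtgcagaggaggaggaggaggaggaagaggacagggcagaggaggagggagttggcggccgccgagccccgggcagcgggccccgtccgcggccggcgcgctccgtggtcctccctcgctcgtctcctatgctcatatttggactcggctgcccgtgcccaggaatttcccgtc

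RDH5, plus strand, chr12:55720143-55720392: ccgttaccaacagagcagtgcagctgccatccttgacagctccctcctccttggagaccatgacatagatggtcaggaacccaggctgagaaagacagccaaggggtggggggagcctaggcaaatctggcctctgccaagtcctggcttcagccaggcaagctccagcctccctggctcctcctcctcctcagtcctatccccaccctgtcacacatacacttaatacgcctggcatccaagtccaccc

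METTL7B, plus strand, chr12:55681486-55681735: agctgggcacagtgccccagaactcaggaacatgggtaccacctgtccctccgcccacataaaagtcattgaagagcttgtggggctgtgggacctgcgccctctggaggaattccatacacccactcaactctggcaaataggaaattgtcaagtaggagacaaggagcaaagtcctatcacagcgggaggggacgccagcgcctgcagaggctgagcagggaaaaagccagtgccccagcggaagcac

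The 250-base run of MSRB3 holds 19 CpG dinucleotides, that of METTL7B 6, that of LMNTD1 5 and that of RDH5 2. A promoter record of 300 bases (250 before and 50 after the start) was matched for 225 members. Only the 250 bases before the start were counted and searched. They held a median of 19 CpG in the members against 11 over all 27305 promoters. Searched on both strands, TGANTCA was found in 16 of the 225 (7.11%) and in 6.60% of all promoters. The TCF/LEF motif ATCAAAG, which has no overlap with it, was found in 0 of the 225 and in 2.28% of all promoters. The members passed a minimum FPKM, while the 27305 promoters were not selected by expression. These values therefore do not compare the segment with other expressed genes, and the letters describe these windows only. RASSF8 and ITGA7 had no entry in the promoter table.

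Members of the segment read lower in OVER43 than in EV. Over the 378 members, the median log2 difference, OVER43 minus EV on log2(FPKM + 0.01), was -0.37 (interquartile range -0.63 to -0.12), which is a ratio of 0.773. The 324 entries of the rest of chromosome 12 that passed the same minimum had a median of -0.13 (interquartile range -0.34 to 0.12), and all 12793 entries tested had a median of -0.12. The difference of medians, members minus rest of the chromosome, was -0.24. With libraries centred on their medians the members stood at -0.24 and the rest of the chromosome at 0.0057, and the members' median was -0.24 with a constant of 0.1 and -0.21 without a minimum level. The difference was below 0 in 303 of 378 members (80.2%), in 207 of 324 other entries of the chromosome (63.9%) and in 61.8% of all entries. Added constants shrink differences of weak entries, so those near 0.05 FPKM changed by more than their log2 difference says.

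**Figure D1:**
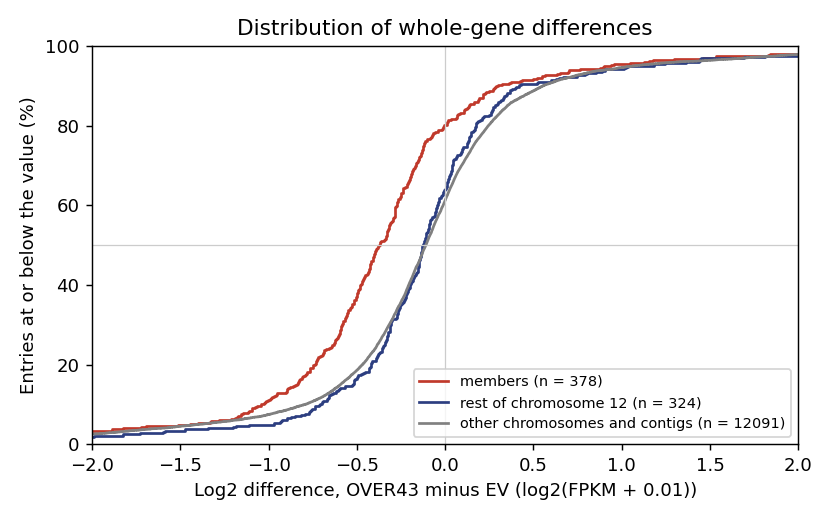
Cumulative share of entries (vertical axis, percent) at or below each log2 difference, OVER43 minus EV of log2(FPKM + 0.01) (horizontal axis, limited to -2 to 2), for the 378 members, the 324 entries of the rest of chromosome 12 and 12091 entries of other chromosomes and contigs. The curve of the members lies to the left of the other 2 over most of its range, with medians of -0.37, -0.13 and -0.11.

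The separation was present in each library. Each library was summarised as the median, over the members, of its value minus the 6-library mean of the same entry. The OVER43 libraries 0, 1 and 2 read -0.18, -0.18 and -0.20 and the EV libraries 0, 1 and 2 read 0.21, 0.23 and 0.18, on the log2 scale. For the rest of the chromosome the OVER43 libraries read -0.05, -0.07 and -0.08 and the EV libraries 0.08, 0.07 and 0.08. All 3 OVER43 libraries lay below all 3 EV libraries in both sets, by a wider distance in the members. After subtracting the value of the rest of the chromosome, the members stood at -0.12 ± 0.013 in OVER43 and 0.13 ± 0.028 in EV (SD, n = 3), and the groups did not overlap. The segment was selected on these same libraries, so this separation is a description and adds no support.

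**Figure D2:**
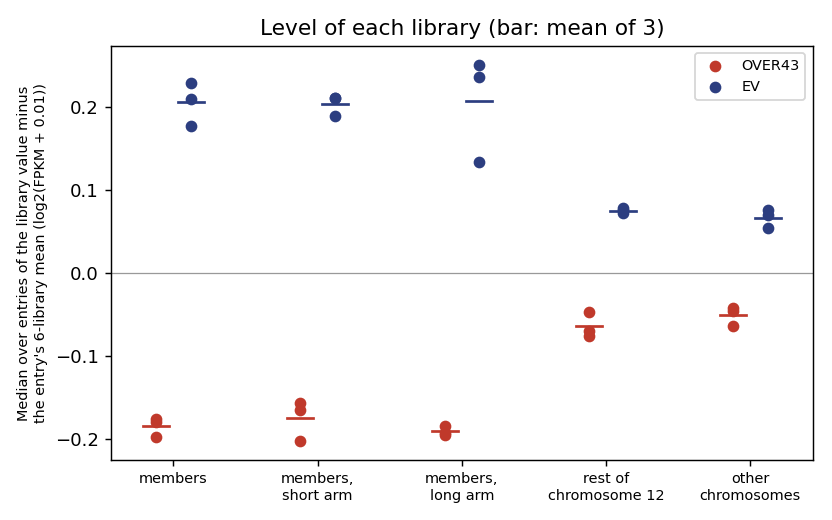
Level of each of the 6 libraries (points), as the median over entries of the library's log2(FPKM + 0.01) minus the 6-library mean of that entry; bars are means of 3. OVER43 libraries stand at -0.20 to -0.18 over the members and at -0.08 to -0.05 over the rest of chromosome 12.

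Among the members, 92 were called lower and 7 higher in OVER43. A call is a Benjamini-Hochberg adjusted p under 0.05 from limma, fitted over all 12793 entries; over that whole table, 9.84% were called lower and 2.99% higher. In the rest of chromosome 12, 33 of 324 were called lower and 9 higher. Every OVER43 library lay below every EV library in 185 members (48.9%), against 27.9% of all entries tested and 90 entries (27.8%) of the rest of the chromosome. The reverse order was seen in 17 members (4.50%) and in 10.3% of all entries. The number called rests on all libraries: without OVER43 libraries 0, 1 and 2 in turn, 34, 48 and 33 members were called lower, and without EV libraries 0, 1 and 2 it was 26, 19 and 32. The balance of calls over the whole table moved with the scaling, from 1259 lower and 383 higher to 665 and 635 when each library was centred on its own median. Under that centring the median of all entries moved from -0.12 to 0.02, and 57 members were called lower and 8 higher. Of 28 named entries called, 8 kept the call under every alternative that included them, except the block by column number and no minimum level: B4GALNT3, PEX5, ADCY6, ASIC1, ITGA7, LMNTD1, RASSF8 and MSRB3.

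Medians of bins lay below 0 all along the segment, while single loci in it did not all read lower. In 13 bins of 5 Mb that lie wholly within it, the median difference was between -0.59 and -0.27, and the median level of every OVER43 library was below that of every EV library in 13 of 13. The bin of 25 to 30 Mb, with a median of -0.32, had 19 of 29 entries below 0, 7 called lower and 6 higher. The bin of 35 to 40 Mb held only 1 entry. In 12 bins outside, the median was between -0.28 and 0.13, with the libraries apart in 9. Of these bins, those with 15 or more entries had medians between -0.50 and -0.27 inside (8 bins, libraries apart in 8) and between -0.22 and -0.05 outside (7 bins, libraries apart in 6). The short arm held 155 members with a median of -0.35 (40 called lower, 6 higher) and the long arm 223 members with a median of -0.38 (52 lower, 1 higher). The arms are parted by a gap of 34402893 to 37935813 without whole-gene loci. Both arms gave close medians, and no test of them was made.

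**Figure D3:**
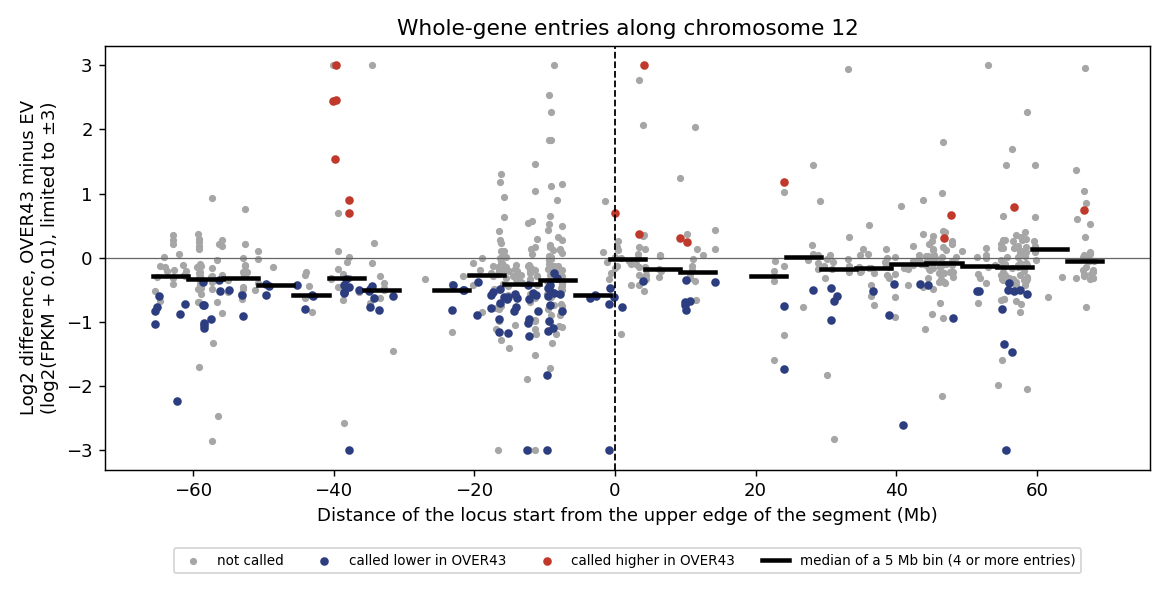
Log2 difference, OVER43 minus EV of log2(FPKM + 0.01), of each whole-gene entry of chromosome 12 (points, limited to ±3) against the distance in Mb of its locus start from the upper edge of the segment (dashed line). Bars are medians of 5 Mb bins with 4 or more entries; those left of the line lie at -0.27 or below, and that of the bin which contains the line lies at -0.02.

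At the lower end the segment begins with the first entries of the chromosome that passed the minimum, with 0 such entries before it. The first 10 members had a median difference of -0.56, 9 of them below 0. ENSG00000261799, an unnamed sense-overlapping transcript at 383120 to 386289, read 0.895, 1.33 and 1.11 FPKM in OVER43 and 2.32, 2.31 and 2.11 FPKM in EV (log2 difference -1.02, limma adjusted p = 0.0189). Beside it lies KDM5A, described below with the chromatin genes. CCDC77, which shares a locus with KDM5A, had a difference of -0.52 (limma adjusted p = 0.0549) and separate groups. B4GALNT3, a glycosyltransferase gene at 569530 to 672675, read 0.117, 0.104 and 0.122 FPKM in OVER43 and 0.197, 0.195 and 0.211 FPKM in EV (-0.77, limma adjusted p = 0.00989).

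At the upper end the level changed between neighbouring genes. The last 10 members had a median of -0.29 with 8 below 0, and the first 10 entries past the edge one of -0.07 with 6 below 0; over 30 entries on each side the medians were -0.40 and -0.07. The edge itself was set from OVER43 minus EV differences of these same libraries, gene-table values among them, so the step is a description. LEMD3, an inner nuclear membrane protein that binds SMADs, lies at 65563351 to 65642107 and read 0.0755, 0.0857 and 0.0691 FPKM in OVER43 and 0.109, 0.132 and 0.125 FPKM in EV (-0.60, limma adjusted p = 0.0326). The next locus, 65672423 to 66036152, starts in the segment and runs past its edge. It holds MSRB3, a methionine sulfoxide reductase, which was called higher, with 0.310, 0.302 and 0.301 FPKM in OVER43 and 0.192, 0.173 and 0.185 FPKM in EV (0.70, limma adjusted p = 0.00681). The groups of LEMD3 and of MSRB3 are both separate, in opposite directions, across a short distance.

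The antisense gene MSRB3-AS1 overlaps MSRB3 at the same locus, and without the strand of the reads their fragments cannot be told apart. MSRB3-AS1 read 3.07, 3.46 and 2.91 FPKM in OVER43 and 3.12, 3.11 and 3.12 FPKM in EV (0.01, limma adjusted p = 0.959). In the gene table it was called higher, at 106.5 ± 5.17 against 76.0 ± 1.38 FPKM (0.48, limma adjusted p = 7.34e-05). The part of its fragments in the MSRB3 entry was not tested. Past the edge, HMGA2, an architectural chromatin protein, read 2.19, 2.11 and 2.26 FPKM in OVER43 and 2.01, 1.99 and 2.003 FPKM in EV (0.12, limma adjusted p = 0.209). MDM2, the ubiquitin ligase of p53 further along the arm, had a difference of -0.42 (limma adjusted p = 0.0595). The step at the edge is thus one of medians over neighbouring entries, with single genes on either side that go against it.

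The difference varied with the size and depth of the entry. The 149 members spanning 20 to 100 kb had a median of -0.42 with 133 below 0, and the 27 members of at least 100 kb had a median of -0.42 with 22 below 0. The 83 members under 5 kb had a median of -0.26 with 49 below 0, and the 114 of 5 to 20 kb one of -0.33. By estimated fragments, the 218 members with 100 to 1000 had a median of -0.38 with 192 below 0, the 33 members with at least 1000 one of -0.37, and the 122 with under 100 one of -0.30 and the widest spread. The rest of the chromosome had medians of -0.13 and -0.17 in the 100 to 1000 and at least 1000 classes, and of 0.0022 in the class under 100, with 43 of 87 below 0. A member held a median of 186 estimated fragments over the mean of the libraries, so most single entries are shallow.

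By gene type, 265 members are protein-coding with a median of -0.37, 43 are antisense with a median of -0.27, 21 are lincRNAs with a median of -0.59 and 28 are pseudogenes with a median of -0.36. Of the members, 273 share a locus with another whole-gene entry, where the assignment of fragments between overlapping genes is uncertain. For the 10 members just above the minimum of 0.05 FPKM, at 0.0502 to 0.0525 FPKM, the median difference was -0.64, and for the 10 segment entries just below it, at 0.0457 to 0.0496 FPKM, it was -0.81.

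The members were also counted by function; the shares called over all entries, 9.84% lower and 2.99% higher, stand behind each count, and the lists were not tested against each other or against the other members. Of 19 chromatin regulators listed, 17 are members; 7 were called lower, 0 higher and 10 in neither direction, and the median difference was -0.48 against -0.37 over all members and -0.12 over all entries tested. With centred libraries or quantile normalization 4 of the 17 were called lower. KDM5A, a demethylase of histone H3 lysine 4 at 389295 to 551811, read 0.0350, 0.0444 and 0.0384 FPKM in OVER43 and 0.0743, 0.0765 and 0.0809 FPKM in EV (-0.83, SE 0.16, limma adjusted p = 0.0313). That call was lost with centred libraries (limma adjusted p = 0.0573), with quantile normalization (0.0852) and without any single library (0.0511 to 0.0984). ARID2, a subunit of the PBAF remodelling complex at 46123448 to 46301823, read 0.0669, 0.0635 and 0.0695 FPKM in OVER43 and 0.143, 0.120 and 0.135 FPKM in EV (-0.89, SE 0.09, limma adjusted p = 0.00907). In both genes the OVER43 libraries lie close together, well under the EV libraries.

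RESF1, a retroelement silencing factor, was also called lower, at 0.167 ± 0.00432 FPKM in the OVER43 libraries against 0.301 ± 0.0332 in the EV libraries (-0.81, limma adjusted p = 0.011). YAF2, a partner of Polycomb complexes, stood at 0.0688 ± 0.00594 and 0.128 ± 0.00697 FPKM (-0.81, limma adjusted p = 0.0104). The other 3 called were SINHCAF, BAZ2A and KMT2D, with differences of -0.63, -0.55 and -0.48. KANSL2, a subunit of a histone acetyltransferase complex, had a difference of -0.15 with limma adjusted p = 0.301, and CHD4, a remodelling ATPase, one of -0.22 with limma adjusted p = 0.249. MBD6 alone of the 17 had a difference above 0, at 0.13 (limma adjusted p = 0.863). The range over the 17 was thus -0.89 to 0.13.

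Of the transcription factors and cofactors, 19 of 32 listed are members, with a median difference of -0.30; 4 were called lower and 0 higher. MED21, a Mediator subunit at 27175479 to 27219276, read 0.679, 0.646 and 0.582 FPKM in OVER43 and 0.955, 0.889 and 0.918 FPKM in EV (-0.53, limma adjusted p = 0.0188). The lymphoid factor IKZF4, the POU factor POU6F1 and the signal transducer STAT6 were the other 3, at -0.99, -0.77 and -0.32. FOXM1, a factor of mitotic genes, had a difference of -0.30 (limma adjusted p = 0.145), and its groups overlapped. DDIT3, a stress factor, had a difference of 0.14 (limma adjusted p = 0.565).

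Among cell cycle, replication and repair genes, 18 of 20 listed are members, 2 were called lower (5 with equal sums) and 0 higher, and the median was -0.20, the nearest of the lists to that of all entries. The 2 were RACGAP1, a regulator of cytokinesis, at -0.64, and SMUG1, a uracil DNA glycosylase, at -0.59. CCND2, which encodes cyclin D2, read 0.668, 0.643 and 0.638 FPKM in OVER43 and 0.785, 0.673 and 0.664 FPKM in EV (-0.12, limma adjusted p = 0.413). Its groups overlap, and its difference was 0.02 when libraries were centred on their medians. CDK2, a kinase of the G1 to S transition, read 0.458, 0.385 and 0.489 FPKM in OVER43 and 0.737, 0.505 and 0.505 FPKM in EV (-0.37, limma adjusted p = 0.246). CDK4, the partner kinase of D cyclins, read 1.03, 1.21 and 0.929 FPKM in OVER43 and 0.637, 0.670 and 0.951 FPKM in EV (0.50, limma adjusted p = 0.152). The cell cycle kinases at the end of the segment therefore showed no common direction past the test.

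Kinase, phosphatase and RAS pathway genes held 20 members of 35 listed; 7 were called lower (5 with centred libraries, 4 with quantile normalization) and 1 higher, with a median of -0.47. ADCY6, an adenylyl cyclase at 49159975 to 49182820, read 0.154, 0.144 and 0.134 FPKM in OVER43 and 0.338, 0.314 and 0.347 FPKM in EV (-1.16, SE 0.08, limma adjusted p = 0.0047). WNK1, a kinase of ion transport at 861759 to 1020618, read 0.153, 0.160 and 0.149 FPKM in OVER43 and 0.225, 0.249 and 0.239 FPKM in EV (-0.60, limma adjusted p = 0.0109). PRKAG1, a regulatory subunit of AMP-activated kinase, read 0.393, 0.470 and 0.422 FPKM in OVER43 and 0.667, 0.721 and 0.732 FPKM in EV (-0.71, limma adjusted p = 0.0124). All 3 have separate groups, and WNK1 rests on the most fragments, an estimated 1462 for the mean library. CTDSP2, USP15, DUSP16 and RASSF3 were the other 4, between -0.82 and -0.47. The member called higher was RASSF8, described below.

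Of the genes of the Wnt, TGF-β and Hedgehog pathways, 4 of 17 listed are members, and 2 were called lower, LEMD3 and GDF11 (1 with centred libraries or quantile normalization), with a median of -0.60 over the 4. GDF11, a TGF-β family ligand at the locus 56137064 to 56236750, read 0.801, 0.900 and 0.979 FPKM in OVER43 and 1.37, 1.29 and 1.398 FPKM in EV (-0.60, limma adjusted p = 0.02). ACVR1B, a type I activin receptor, had a difference of -0.27 (limma adjusted p = 0.311), and INHBE, an inhibin subunit gene, one of -0.89 (limma adjusted p = 0.243). INHBE rests on an estimated 41.9 fragments.

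Metabolic and mitochondrial genes held 25 members of 35 listed, with 8 called lower (5 with centred libraries, 4 with quantile normalization), 0 higher and a median of -0.33. ETNK1, an ethanolamine kinase, stood at 0.449 ± 0.0315 FPKM in the OVER43 libraries against 0.687 ± 0.000949 in the EV libraries (-0.60, limma adjusted p = 0.0109). CERS5, a ceramide synthase, stood at 0.510 ± 0.0362 and 0.785 ± 0.102 FPKM (-0.61, limma adjusted p = 0.0325). CSAD, DERA, ATP5MC2, FAR2, MRPS35 and MGST1 were the other 6, between -0.64 and -0.44. GAPDH, the glycolytic dehydrogenase, read 1.45, 1.41 and 1.53 FPKM in OVER43 and 1.39, 1.18 and 1.30 FPKM in EV (0.19, limma adjusted p = 0.206). In the gene table it stood at 2094 and 2107 FPKM, and the part of exon fragments in its whole-gene entry was not tested.

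Of 25 members among the RNA processing and translation genes, 11 were called lower and 0 higher, with a median of -0.37; with centred libraries or quantile normalization 5 were called lower. RBMS2, an RNA-binding protein at 56915713 to 56984745, read 0.0417, 0.0476 and 0.0383 FPKM in OVER43 and 0.0943, 0.104 and 0.108 FPKM in EV (-1.09, limma adjusted p = 0.00989). CAPRIN2 stood at 0.765 ± 0.0176 and 1.07 ± 0.0419 FPKM (-0.48, limma adjusted p = 0.0124), and SCAF11, a splicing factor, at 0.574 ± 0.0221 and 0.745 ± 0.0394 FPKM (-0.37, limma adjusted p = 0.0296). The smallest called difference was that of NACA, a chaperone of nascent chains, which read 1.26, 1.30 and 1.26 FPKM in OVER43 and 1.48, 1.54 and 1.49 FPKM in EV (-0.24, limma adjusted p = 0.0476). HNRNPA1 had a difference of -0.29 (limma adjusted p = 0.151) and RPL41 one of -0.38 (limma adjusted p = 0.0937).

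Of the membrane transporters and channels, 7 of 23 listed are members; 2 were called lower (5 with equal sums), 0 higher, and all 7 lay below 0, with a median of -0.42. SLC11A2, an iron transporter at 51373184 to 51422349, read 0.0831, 0.0828 and 0.0885 FPKM in OVER43 and 0.164, 0.153 and 0.161 FPKM in EV (-0.84, limma adjusted p = 0.00589). SLC48A1, a haem transporter, was the other, at -0.58. SLC38A2, an amino acid transporter, read 2.68, 2.497 and 2.69 FPKM in OVER43 and 2.70, 2.54 and 2.69 FPKM in EV (-0.01, limma adjusted p = 0.933), so its groups overlap. Its difference turned to 0.12 when libraries were centred on their medians. In the gene table, these 7 members had a median of -0.17, with 3 called lower and 3 called higher. SLC38A1 was called higher there (0.13, limma adjusted p = 0.0381), as was SLC38A2 (0.33, limma adjusted p = 0.00214). SLC4A8 was the other called higher (0.20, limma adjusted p = 0.0210). As whole-gene entries, SLC38A1 (-0.19, limma adjusted p = 0.0934) and SLC4A8 (-0.21, limma adjusted p = 0.114) were not called.

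Genes of the cytoskeleton, keratins and adhesion held 16 members, with 6 called lower (3 with centred libraries, 4 with quantile normalization), 0 higher and a median of -0.39. ITGA7, an integrin α subunit that binds laminin, was the lowest of them; it read 0.328, 0.374 and 0.337 FPKM in OVER43 and 1.31, 1.29 and 1.16 FPKM in EV (-1.83, SE 0.09, limma adjusted p = 0.00159). ITGA5, the α subunit of the fibronectin receptor, read 0.0988, 0.0803 and 0.0844 FPKM in OVER43 and 0.157, 0.206 and 0.134 FPKM in EV (-0.83, limma adjusted p = 0.0411). DCTN2, TWF1 and MYL6 were called lower at -0.56, -0.50 and -0.43.

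The keratin genes KRT8 and KRT18, which encode partner keratins of simple epithelia, share the locus 53290977 to 53346686. KRT8 read 0.179, 0.190 and 0.143 FPKM in OVER43 and 0.309, 0.353 and 0.403 FPKM in EV (-1.02, limma adjusted p = 0.0171). KRT18 read 0.656, 0.593 and 0.573 FPKM in OVER43 and 0.268, 0.475 and 0.544 FPKM in EV (0.55, limma adjusted p = 0.245). The groups are separate in both genes and stand in opposite order, and in the gene table KRT8 was at 24.6 against 58.7 FPKM and KRT18 at 148 against 79.4 FPKM. KRT79, a keratin at 53215194 to 53228079, read 0, 0.0197 and 0.00722 FPKM in OVER43 and 0.134, 0.151 and 0.136 FPKM in EV (-3.13, limma adjusted p = 0.0188), with 1 library listed at 0 and a ratio of means of 0.0639. Of the HOXC cluster, which patterns the body axis, 6 of 10 genes are members and 0 were called in either direction, with a median of -0.80. HOXC8 read 0, 0.158 and 0.378 FPKM in OVER43 and 0.0986, 0.297 and 0.447 FPKM in EV (-1.51, limma adjusted p = 0.552), so its libraries vary widely within a group. HOXC9 stood at 0.246 ± 0.0485 and 0.383 ± 0.0477 FPKM with separate groups (-0.63, limma adjusted p = 0.0768). HOXC6, the deepest of them, had a difference of 0.17 (limma adjusted p = 0.515). In the gene table the 6 had a median of 0.02, with 1 called lower and 0 higher.

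**Figure D4:**
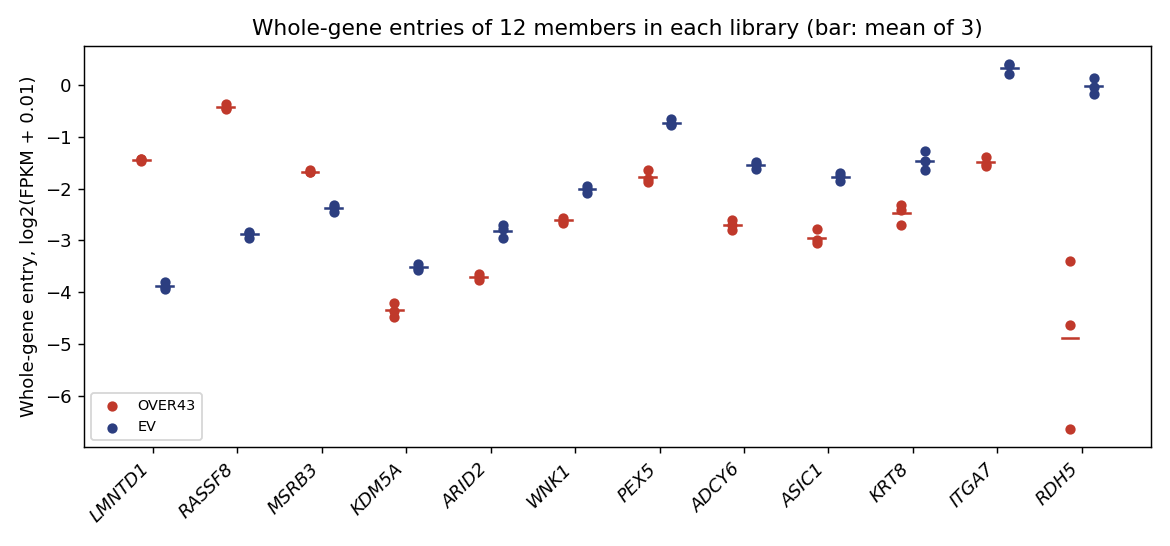
Whole-gene entries of 12 members in the 3 OVER43 and 3 EV libraries (points; vertical axis log2(FPKM + 0.01); bars are means of 3), ordered so that the members higher in OVER43 stand at the left. LMNTD1, RASSF8 and MSRB3 are higher in every OVER43 library, and in the 9 others every OVER43 library is below every EV library.

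Among members called lower with a symbol, separate groups and a span of at least 5 kb, further large differences were those of LINC02827, a long non-coding RNA, at -2.24, the acid-sensing ion channel gene ASIC1 at -1.17, the pseudogene TMEM198B at -1.15, CLSTN3 at -1.09 and PEX5 at -1.04. PEX5, the receptor for protein import into peroxisomes, at the locus 7319270 to 7371170, read 0.262, 0.275 and 0.312 FPKM in OVER43 and 0.623, 0.580 and 0.574 FPKM in EV (SE 0.09, limma adjusted p = 0.00589). ASIC1, at 50451331 to 50477394, read 0.135, 0.116 and 0.110 FPKM in OVER43 and 0.287, 0.267 and 0.296 FPKM in EV (SE 0.10, limma adjusted p = 0.00589). The ratio of means, OVER43 over EV, was 0.478 for PEX5 and 0.425 for ASIC1, with separate groups in both. Leaving out each library in turn left 16 members called every time, among them PEX5, ASIC1, ADCY6, ITGA7, ARID2, WNK1, YAF2, SLC11A2 and B4GALNT3 in the lower direction and LMNTD1, RASSF8 and MSRB3 in the higher.

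ITGA7 shares the locus 56075330 to 56118489 with RDH5 and METTL7B, whose gene starts were printed above. RDH5, a retinol dehydrogenase of the visual cycle, read 0.0304, 0.0848 and 0 FPKM in OVER43 and 1.08, 0.965 and 0.876 FPKM in EV (-4.86, SE 0.83, limma adjusted p = 0.0258). METTL7B, a thiol methyltransferase, read 0.172, 0 and 0.227 FPKM in OVER43 and 0.844, 0.609 and 0.601 FPKM in EV (-3.18, SE 1.28, limma adjusted p = 0.169). In both genes the groups are separate and 1 OVER43 library is listed at 0, so both log2 differences depend on the constant of 0.01. The ratio of means, OVER43 over EV, was 0.0394 for RDH5 and 0.194 for METTL7B, which did not pass the test. In the gene table, RDH5 stood at 0.474 ± 0.181 FPKM in the OVER43 libraries against 6.98 ± 0.443 in the EV libraries, METTL7B at 13.9 ± 0.342 and 63.9 ± 2.85 FPKM, and ITGA7 at 6.79 ± 0.0784 and 13.04 ± 0.538 FPKM. CD63, a tetraspanin gene at the next locus, had a whole-gene difference of -0.36 (limma adjusted p = 0.534).

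The members called higher lay in 3 places. LMNTD1, a gene with a lamin tail domain at 25562227 to 25801513, read 0.352, 0.360 and 0.362 FPKM in OVER43 and 0.0621, 0.0550 and 0.0569 FPKM in EV (2.44, SE 0.07, limma adjusted p = 0.000582). RASSF8, a RAS association domain gene at 26092262 to 26232825, read 0.728, 0.763 and 0.713 FPKM in OVER43 and 0.128, 0.130 and 0.120 FPKM in EV (2.45, SE 0.06, limma adjusted p = 0.000437). The spans rest on an estimated 2363 and 2470 fragments for the mean library, and the libraries of a group differ little.

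Between these genes lie 2 lincRNAs that were also called higher. ENSG00000256686, at 25935640 to 25967105, read 0.226, 0.181 and 0.170 FPKM in OVER43 and 0.0489, 0.0561 and 0.0757 FPKM in EV (1.53, limma adjusted p = 0.0114). ENSG00000256440, at 25984350 to 25987116, read 0.310, 0.147 and 0.284 FPKM in OVER43 and 0.0151, 0 and 0.0502 FPKM in EV (3.31, limma adjusted p = 0.0434), on an estimated 17.7 fragments. At the next locus after this run, 26272959 to 26986131, the antisense gene ENSG00000255968 (-0.17, limma adjusted p = 0.234) and BHLHE41, a circadian repressor (0.69, limma adjusted p = 0.599), were not called as whole-gene entries. In the gene table BHLHE41 was called higher, at 4.48 ± 0.232 against 2.39 ± 0.761 FPKM (0.72, limma adjusted p = 0.00583).

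The second place is the locus 27849321 to 27863703, where REP15, an effector of RAB15, read 2.57, 1.62 and 2.01 FPKM in OVER43 and 0.993, 1.18 and 1.09 FPKM in EV (0.90, limma adjusted p = 0.0389). MRPS35-DT, a non-coding transcript at the same locus, read 0.0979, 0.124 and 0.107 FPKM in OVER43 and 0.0744, 0.0637 and 0.0534 FPKM in EV (0.70, limma adjusted p = 0.0405). MRPS35, which encodes a mitochondrial ribosomal protein and starts just past them, was called lower at -0.45 (limma adjusted p = 0.0394). The third place is MSRB3 at the upper edge, which overlaps MSRB3-AS1. The direction of LMNTD1, RASSF8, ENSG00000256686, MRPS35-DT and MSRB3 was the same under each of the 3 other scalings. That of ENSG00000256440 and REP15 under them is not given.

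The deposited gene-level table sums the isoforms of a gene, and 292 members were also tested there on log2(FPKM + 1). Over all 12205 genes so tested, 17.5% were called lower and 28.4% higher. Of the 292, 132 were called lower and 31 higher, with a median of -0.18 against 0.05 over all genes and 0.06 over 255 genes of the rest of the chromosome. The rest of the chromosome had 33 called lower and 78 higher. The whole-gene differences of the same 292 had a median of -0.34. Members stood below the rest of the chromosome in both tables, which come from the same libraries. The gene-table values themselves chose the segment, so this direction is a description and adds no support. The 2 scales differ in the constant added.

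**Figure D5:**
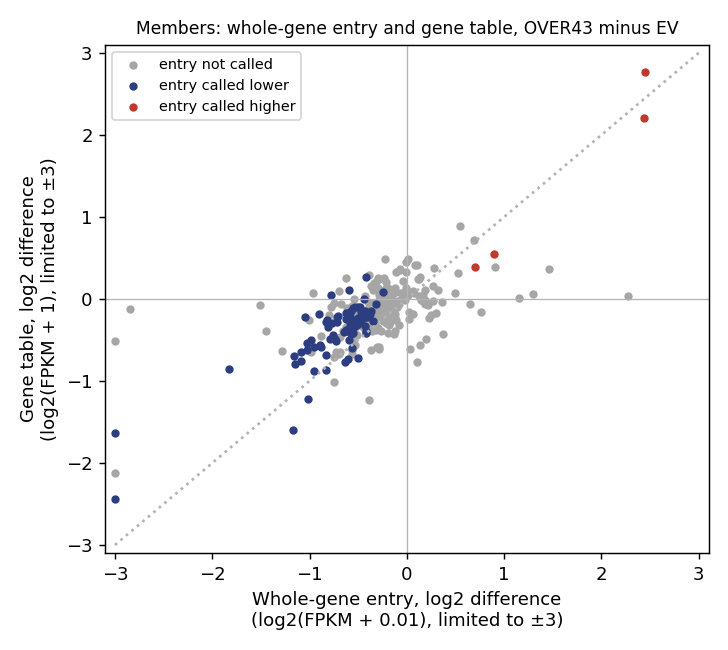
Log2 difference, OVER43 minus EV, of the whole-gene entry (horizontal axis, log2(FPKM + 0.01)) and in the gene table (vertical axis, log2(FPKM + 1)) for 292 members (points, limited to ±3; dotted line, equal values). Most points lie in the lower left, where both differences are below 0 (197 of 292), and the 4 members called higher as whole-gene entries lie at the upper right.

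Across the 292, Pearson's r between both differences was 0.70 and Spearman's rho 0.62, as a description over genes that share libraries, depth and, in part, fragments. The signs were the same in 226. Of all members, 25 are the only entry of their gene and hold the same FPKM in both tables. Those of them among the 292 match by construction. Of 84 whole-gene entries called lower, 60 were called lower in the gene table, 22 were not called and 2 were called higher; all 4 called higher were also higher in the gene table. The whole-gene entry held a median of 1.15% of the FPKM of its gene (interquartile range 0.416% to 3.64%), so the gene table is mostly spliced RNA.

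The 2 members of opposite calls were MYL6 and NACA. MYL6, a myosin light chain gene, read 3.28, 3.41 and 3.33 FPKM as a whole-gene entry in OVER43 and 4.27, 5.03 and 4.196 FPKM in EV (-0.43, limma adjusted p = 0.0394). In the gene table MYL6 stood at 655 and 542 FPKM (0.27, limma adjusted p = 0.000309). NACA stood at 989 and 934 FPKM in the gene table (0.08, limma adjusted p = 0.0288). WNK1 was called lower as a whole-gene entry and had a gene-table difference of 0.11 (limma adjusted p = 0.398). EMP1, an epithelial membrane protein gene, had a whole-gene difference of -0.23 (limma adjusted p = 0.452) and was called higher in the gene table at 0.49 (limma adjusted p = 0.000125).

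Some members rest on few libraries. In 46 members at least 1 library was listed at 0, in 6 every OVER43 library was, and in 4 every EV library was. The small nucleolar RNA entry SNORA2C read 81.7, 31.8 and 0 FPKM in EV and 0 in every OVER43 library, and SNORA75 read 26.6 FPKM in OVER43 library 1 and 0 in the 5 others; neither was called (limma adjusted p = 0.197 and 0.504). ENSG00000256512, at 27932754 to 27955973, was listed at 0 in every OVER43 library and read 0.784, 0.825 and 0.253 FPKM in EV (limma adjusted p = 0.00589). ENSG00000255566, at the locus 64798130 to 64844907, was likewise at 0 in every OVER43 library and read 0.231, 0.245 and 0.330 FPKM in EV (limma adjusted p = 0.0026), on an estimated 5.15 fragments. No fold is given for either, since a value of 0 here can be a missing estimate.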

How the data were processed

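Per the labels' protocols, poly(A) RNA was made into Illumina TruSeq libraries. The authors deposited an isoform-level and a gene-level table of FPKM per library, which the submitters' processing notes trace to Cuffdiff without a version. Aligner, read strand and annotation are each not given in the sources used here. The authors' log2 fold changes, p-values and q-values, and their test statistic, a score, stand in the deposited tables as Cuffdiff output and were not used for any result. The notes name hg38, but the loci are hg19 positions: of 373 members with a GENCODE 29 gene on GRCh38, 0 share an edge with it. Starts are printed 1-based, and overlapping genes can share 1 locus. Gene types and spans came from GENCODE 29. Symbols came from a reference list of gene names, or else from GENCODE 29 or the deposited symbols.

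Column numbers run from 0 to 2 and labelled replicates from 1 to 3, so columns were tied to groups and not to single samples. The labels name no separate cultures, so the spread behind each p-value is that of these libraries and may be technical. 0 library columns were left unused. No 2 libraries held identical values.

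Whole-gene entries with a mean of at least 0.05 FPKM were fitted on log2(FPKM + 0.01) with limma 3.58.1 under R 4.3.3, with its trend and robust options and group as sole term, two-sided, with Benjamini-Hochberg adjustment over 12793 entries; 13 whole-gene entries without an estimate were left out. The gene table was fitted in the same way on log2(FPKM + 1), for genes of at least 1 FPKM in at least 3 libraries. The procedure was also run on simulated counts with a single fixed spread and no shift over all entries. These settings differ from the data, so that run does not check the calls given here. Depth and estimated fragments were read from low FPKM values, which step by 1 fragment (99.6% to 100% within 0.1 of a whole number). Estimated fragments served to sort entries and entered no count test.

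Members, lists and tests were chosen with earlier results of these data known. The named entries are the 8 of highest FPKM; up to 10 called entries in each direction, by size of difference, with a symbol, separate groups and a span of at least 5 kb (10 lower and 5 higher); the 4 nearest each edge on either side; the 3 of highest FPKM per list; and CDK2, CDK4, CCND2, RASSF8, LMNTD1, METTL7B, ITGA5, KRT8, KRT18, HMGA2 and MDM2 whatever their result. A gene that also meets the rule is not reported here. Not every entry that met this rule is described above. Among those left out, ENSG00000269968 (0.30), RHNO1 (0.36), MAP3K12 (0.14), DNAJC22 (0.06), SMARCD1 (-0.43), YARS2 (-0.50) and ATP5F1B (-0.25) were not called. ENSG00000256663 (-0.42), also left out, was called lower. Members named outside this rule were chosen after their values were seen. RDH5, ARID2, WNK1, SLC11A2, ETNK1, CERS5 and CAPRIN2 are among them, and those listed here were called lower. Alternatives were other constants, minimum levels and scalings, a block by column number, limma without its trend and robust options, subsets of entries, and leaving out each library.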

Additional observations from a re-analysis of the deposited data

How the results depend on the processing

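The median difference of the members stayed below 0 under each alternative for which it was computed. It was -0.24 with a constant of 0.1, -0.21 without a minimum level, -0.32 at a minimum of 0.2 FPKM, -0.45 with equal sums, -0.24 with centred libraries, -0.27 with quantile normalization, -0.44 where the other isoforms held under 5 FPKM and -0.46 for entries alone at their locus. Leaving out each library gave -0.40 to -0.36. The rest of the chromosome gave, in order, -0.0821 with a constant of 0.1, -0.0619 without a minimum, -0.20 with equal sums, 0.0057 with centred libraries and 0.0023 with quantile normalization, where it changed sign, and -0.0944 for lone entries, and -0.14 to -0.10 without each library. The members minus the rest gave -0.16 with a constant of 0.1, -0.15 without a minimum, -0.20 at 0.2 FPKM, -0.31 where the other isoforms held under 5 FPKM and -0.37 for lone entries, and -0.28 to -0.23 without each library. The last of these settings takes out loci of overlapping genes, and the cause of the shift was not tested. The medians under quantile normalization were added after seeing the data. Restricting to at least 100 estimated fragments, or leaving out entries that are alone in their gene, 2 alternatives chosen after seeing the data, moved none of these values by more than the spread between libraries.

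The counts of calls moved more. Members called lower were 50 at a minimum of 0.2 FPKM, 57 with centred libraries and 58 with quantile normalization, 125 with equal sums, and 19 to 48 without each library in turn; members called higher were 4 at 0.2 FPKM and 3 to 7 without each library. Fewer entries or samples enter some of these fits. Over all entries, calls were 2009 lower and 299 higher with equal sums and 666 and 432 with quantile normalization. With column number as a replicate block, 0 members were called lower and 0 higher (2 and 1 of all 12793 entries, with 3356 at an unadjusted p under 0.05, against 3920 without it). Deviations of same-numbered columns from their group means had correlations of 0.02, 0.0021 and 0.0051 over whole-gene entries. In the gene table they were 0.017, -0.091 and 0.029. With 3 libraries per group and shallow entries, whether the numbers pair samples cannot be told from these values. Calls in the gene table kept within 1.5 times their number under every alternative run. Of 962 values of 65 named entries under alternatives, 822 kept direction and call, 130 were no longer called, 10 became called and 0 called ones reversed, while 12 uncalled ones changed sign. Depth limits single entries: 122 members hold under 100 estimated fragments per library.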
